A study of Mus musculus with 8 samples.

Results

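H2A.Z peaks that lie within 1000 bp of an end of 2 or more different protein-coding genes (shared-end peaks, candidate shared or bidirectional promoters) were described in the testis of Znhit1-CKO and control mice. The rule used only peak positions and gene coordinates. It chose 2118 of 31156 peaks (6.80%) in the Znhit1-CKO list and 2180 of 48752 peaks (4.47%) in the control list. They were set beside peaks within 1000 bp of an end of exactly 1 such gene (1-gene peaks), of which there were 11470 in the Znhit1-CKO list and 12967 in the control list. Among peaks near any gene end, 15.6% of the Znhit1-CKO peaks and 14.4% of the control peaks were shared-end peaks.

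H2A.Z was mapped by chromatin immunoprecipitation and sequencing in whole testis cells at postnatal day 14, with 2 biological replicates and matched inputs per genotype. The mutant animals carry the genotype labelled Znhit1-CKO, which the protocol names Znhit1-sKO, and the others are labelled control only. No source used here gives the Cre driver, the strain or the alleles of the controls. The study asks how ZNHIT1 affects the genomic placing of H2A.Z in germ cells. The deposited data are a peak list for each genotype and a set of 24367 differential regions, each giving positions and nothing else, so no peak height, no depth and no replicate spread is known and no difference was tested. Shares carry exact (Clopper-Pearson) 95% intervals, which cover counting error only, and neighbouring peaks are not independent. A position list gives no expression level, so the labelled tissue could not be checked by its marker genes. In whole testis, fewer cells of a type and less H2A.Z per cell cannot be told apart, and neither can a lower read depth or a weaker immunoprecipitation of the Znhit1-CKO samples. The Znhit1-CKO list is the shorter one over the genome as a whole.

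H2A.Z is a variant of histone H2A that is placed at gene starts, mostly in the nucleosomes on either side of a nucleosome-poor stretch. The SRCAP complex, of which ZNHIT1 is a subunit, exchanges H2A for H2A.Z. Where 2 genes are transcribed away from each other from neighbouring starts, 1 CpG-rich stretch can serve as the promoter of both. Such bidirectional promoters are known to be common among genes of DNA repair, of mitochondria and of the histone clusters. Genes can also share a region with the start of 1 gene beside the end of the next, or with 2 ends facing each other.

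The following promoters are examples picked by hand, all from head-to-head pairs at shared-end peaks. All sequences are from RefSeq (GRCm38.p6, the primary coordinates of which are those of mm10) and run from 250 bases before the listed start of the named gene to 50 bases after it, 5′ to 3′. Capitals mark the matches of short motifs searched on both strands, and positions count from 1 at the 5′ end. The TATA box was searched as TATAAA and the CCAAT box by the letters of its name. The ETS motif was searched as CCGGAAG, the SP1 motif as GGGCGG and the CREB motif as TGACGTCA, beside the motifs of NRF1 and YY1. Matches of different motifs may overlap. Brd9, a bromodomain protein of chromatin remodelling, lies head-to-head with Trip13, the AAA ATPase that removes HORMA-domain proteins from meiotic chromosomes (chr13:73937561-73937860, plus strand), and the start of Trip13 is at position 235. Hspe1, the mitochondrial co-chaperonin, lies head-to-head with Hspd1, the chaperonin it works with (chr1:55087898-55088197, plus strand).
Brd9: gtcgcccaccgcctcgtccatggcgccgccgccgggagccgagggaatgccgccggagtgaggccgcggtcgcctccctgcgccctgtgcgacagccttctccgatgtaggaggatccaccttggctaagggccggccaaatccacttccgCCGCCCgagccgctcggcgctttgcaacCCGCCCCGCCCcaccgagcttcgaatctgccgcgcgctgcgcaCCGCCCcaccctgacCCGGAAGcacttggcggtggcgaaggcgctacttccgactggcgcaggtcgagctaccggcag
Hspe1: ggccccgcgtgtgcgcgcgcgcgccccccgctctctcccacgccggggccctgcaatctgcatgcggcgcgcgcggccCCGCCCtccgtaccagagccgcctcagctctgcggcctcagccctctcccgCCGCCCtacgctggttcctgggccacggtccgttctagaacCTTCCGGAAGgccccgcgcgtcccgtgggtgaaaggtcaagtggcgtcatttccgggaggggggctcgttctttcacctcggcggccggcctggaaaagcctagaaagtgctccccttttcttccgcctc

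The next promoters belong to meiotic gene pairs with a peak in both lists. 4930432K21Rik, a partner of the BRCA2-binding protein HSF2BP in meiotic recombination, lies head-to-head with Cc2d1a (chr8:84147788-84148087, plus strand), and the start of Cc2d1a is at position 130. The promoter holds a match of the NRF1 motif at position 158. Smc1b, the meiosis-specific cohesin subunit, lies head-to-head with Ribc2, which encodes a protein of ciliary microtubules (chr15:85131908-85132207, minus strand), and the start of Ribc2 is at position 148.
4930432K21Rik: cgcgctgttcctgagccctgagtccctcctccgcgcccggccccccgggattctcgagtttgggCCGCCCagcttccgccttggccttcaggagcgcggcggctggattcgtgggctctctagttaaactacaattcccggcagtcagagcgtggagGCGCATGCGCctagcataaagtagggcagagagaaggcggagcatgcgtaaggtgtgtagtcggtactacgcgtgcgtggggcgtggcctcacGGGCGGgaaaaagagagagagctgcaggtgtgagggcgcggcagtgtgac
Smc1b: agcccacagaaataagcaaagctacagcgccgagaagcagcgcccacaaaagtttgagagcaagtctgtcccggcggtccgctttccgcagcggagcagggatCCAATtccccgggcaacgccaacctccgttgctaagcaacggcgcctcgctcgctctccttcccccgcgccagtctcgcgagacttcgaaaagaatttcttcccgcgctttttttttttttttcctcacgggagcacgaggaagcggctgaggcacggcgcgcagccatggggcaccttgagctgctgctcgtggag

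The last set contrasts peaks listed in both genotypes and peaks listed in the control alone. The peak at Btbd18, a nuclear factor of pachytene piRNA production, and Ctnnd1, which encodes p120 catenin (chr2:84658829-84659128, plus strand, start of Ctnnd1 at position 149), was absent from the Znhit1-CKO list. The histone pair H2ac15 and H2bc15 (chr13:21753863-21754162, minus strand, start of H2bc15 at position 87) had a peak in both lists. The histone pair H2bc22 and H2ac22 (chr13:21787238-21787537, plus strand, start of H2ac22 at position 11) had a control peak only.
Btbd18: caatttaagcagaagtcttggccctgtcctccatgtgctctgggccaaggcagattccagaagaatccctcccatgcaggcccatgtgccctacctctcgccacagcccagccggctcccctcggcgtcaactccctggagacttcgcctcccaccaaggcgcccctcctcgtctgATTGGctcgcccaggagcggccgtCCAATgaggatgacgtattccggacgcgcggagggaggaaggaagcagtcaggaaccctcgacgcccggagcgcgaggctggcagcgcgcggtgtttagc
H2ac15: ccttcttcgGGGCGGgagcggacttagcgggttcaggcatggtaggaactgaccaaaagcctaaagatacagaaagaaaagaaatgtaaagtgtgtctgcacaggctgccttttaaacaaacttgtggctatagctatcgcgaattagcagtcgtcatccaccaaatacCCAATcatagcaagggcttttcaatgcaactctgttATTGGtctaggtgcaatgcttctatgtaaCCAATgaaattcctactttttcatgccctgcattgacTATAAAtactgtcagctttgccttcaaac
H2bc22: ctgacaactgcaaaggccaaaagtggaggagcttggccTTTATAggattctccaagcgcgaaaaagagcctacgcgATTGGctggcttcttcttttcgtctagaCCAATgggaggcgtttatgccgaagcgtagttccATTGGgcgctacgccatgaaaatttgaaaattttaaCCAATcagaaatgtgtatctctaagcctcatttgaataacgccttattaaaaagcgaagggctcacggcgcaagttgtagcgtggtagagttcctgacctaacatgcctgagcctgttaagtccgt

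Shared-end peaks remained listed in Znhit1-CKO testes more often than 1-gene peaks did. Of the 2180 shared-end control peaks, 1991 were overlapped by at least 1 bp of a Znhit1-CKO peak (91.3%, interval 90.1 to 92.5%) and 189 were not. Of the 12967 1-gene control peaks, 10433 were overlapped (80.5%, interval 79.8 to 81.1%), and over all control peaks the share was 49.3%. The difference between shared-end and 1-gene peaks was 10.9 percentage points (interval 9.51 to 12.2). Peaks with no gene end within 1000 bp were overlapped in 34.5% of cases.

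The genes' arrangement set these shares apart within the shared-end peaks. Arrangement needs the strand of each gene, which was known for 1543 of the 2112 control peaks near exactly 2 genes (73.1%), so the classes describe those peaks only. No strand was used for genes of chromosome 18, so its peaks near 2 genes are in no arrangement class and its genes in no promoter set. Of the 36 shared-end control peaks of that chromosome, 77.8% had a Znhit1-CKO peak. Of the 1543 peaks with a known arrangement, 970 (62.9%) lay at 2 starts of genes transcribed away from each other (head-to-head). A further 489 lay at 1 start and 1 end, 44 at 2 ends and 40 at 2 starts in another order. Head-to-head control peaks were overlapped by a Znhit1-CKO peak in 935 of 970 cases (96.4%, interval 95 to 97.5%). Peaks at 1 start and 1 end were overlapped in 432 of 489 cases (88.3%, interval 85.2 to 91.1%). Peaks at 2 ends were overlapped in 24 of 44 cases (54.5%, interval 38.8 to 69.6%). The 1-gene peaks followed the same division, with 85.6% of 9007 peaks at a start and 39.1% of 821 peaks at an end overlapped.

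**Figure D1:**
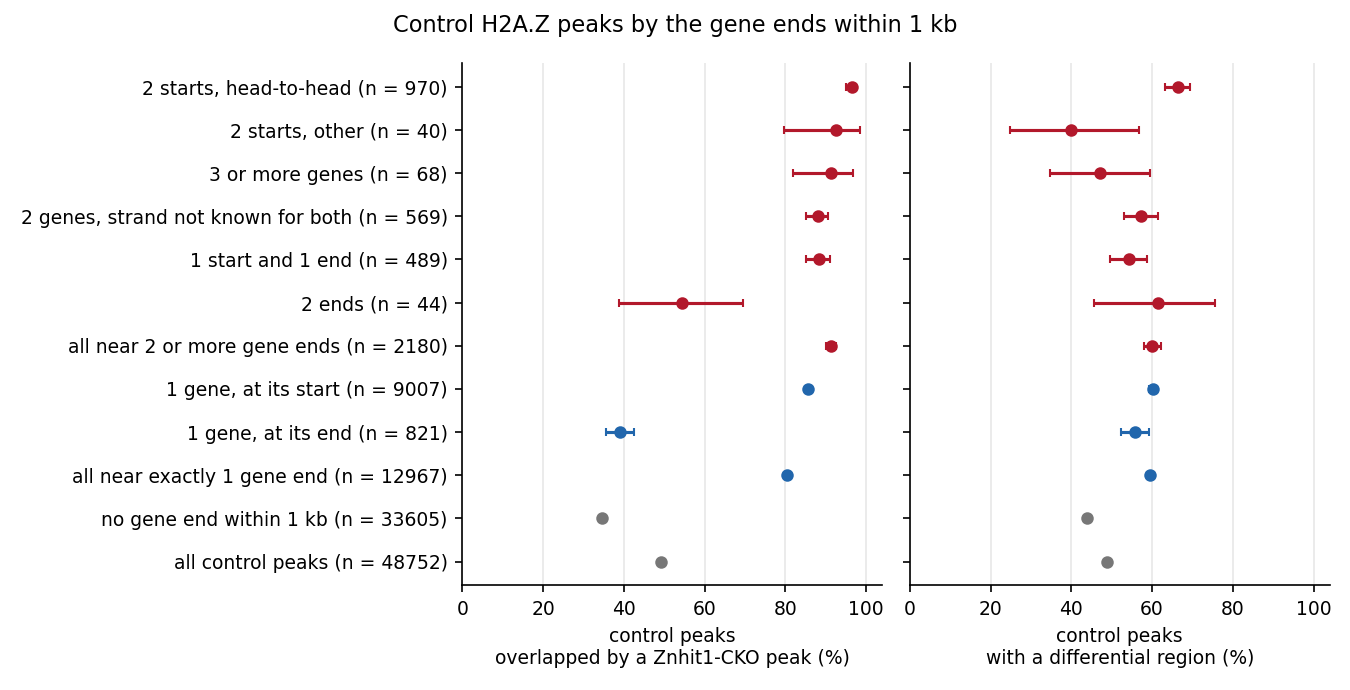
Share of control peaks overlapped by a Znhit1-CKO peak (left, in percent) and share with a differential region (right, in percent), by the gene ends within 1000 bp. Points are shares and bars exact 95% intervals, red for shared-end, blue for 1-gene and grey for other peaks. Head-to-head peaks have the highest share on the left (96.4%) and peaks at 2 ends the lowest of the red classes (54.5%), whereas on the right the head-to-head share (66.4%) is closer to that of 1-gene starts (60.3%).

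Wide peaks were overlapped more often in every class shown, and shared-end peaks were wider than 1-gene peaks, with medians of 1424.5 bp and 1312 bp in the control list. A wider peak comes near a second gene end more readily, so this difference in width follows partly from the rule. Peaks were therefore compared within 4 groups of control width. Among peaks of 205 to 903 bp, 61 of 88 head-to-head peaks were overlapped (69.3%, interval 58.6 to 78.7%) and 954 of 1964 peaks at the start of 1 gene (48.6%, interval 46.3 to 50.8%). Peaks of that width at 1 start and 1 end were overlapped in 60.6% of 109 cases (interval 50.7 to 69.8%). From 904 to 1331 bp the shares were 96.9% at head-to-head starts and 90.6% at 1-gene starts. In the widest group, all 362 head-to-head peaks were overlapped (lower limit 99.0%), against 98.9% of 2364 at 1-gene starts. At matched width, 96.4% of head-to-head peaks were overlapped, against 92.4% of 1-gene starts weighted to the width mix of the head-to-head peaks. Likewise 91.3% of shared-end peaks were overlapped, against 86.1% of 1-gene peaks weighted in the same way. The gap between the classes was thus smaller at matched width, and it was widest in the narrowest group. The 1-gene peaks include 821 at a gene end, of which 39.1% were overlapped, and starts and ends were not matched in the comparison with all shared-end peaks.

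**Figure D2:**
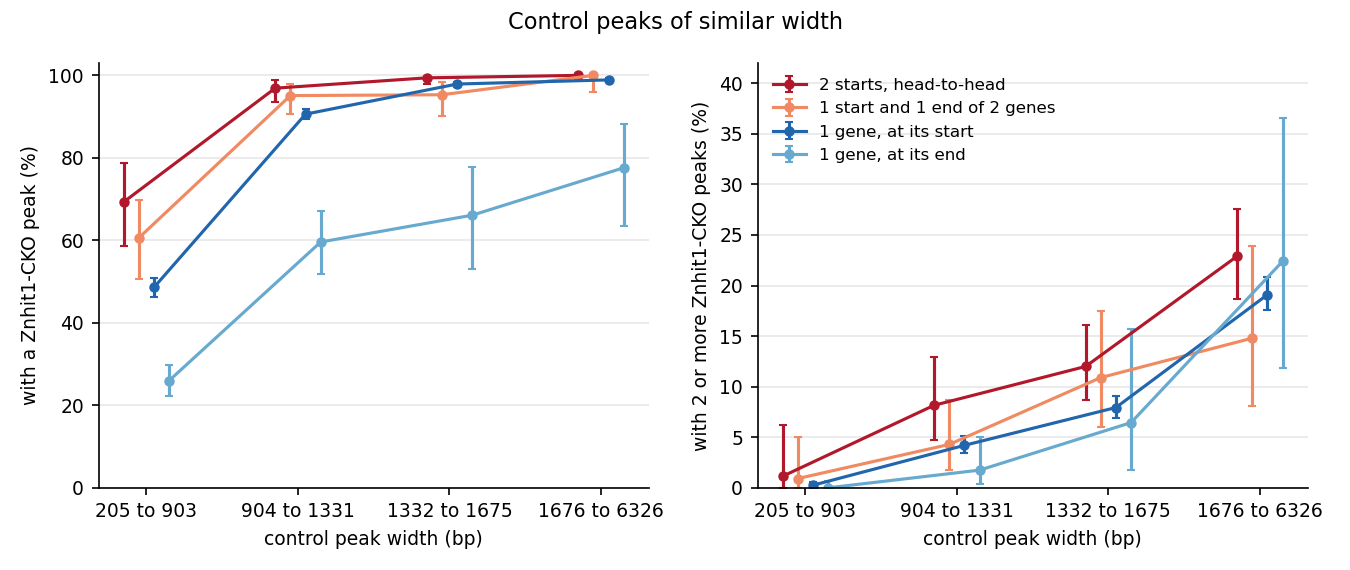
Control peaks that have a Znhit1-CKO peak (left, share in percent) or that have 2 or more Znhit1-CKO peaks (right, share in percent), in 4 groups of control peak width in bp. Points are shares, bars exact 95% intervals, and colours the arrangement of genes. In the narrowest group the head-to-head share (69.3%) lies above that of 1-gene starts (48.6%), and in the widest group both are near the ceiling.

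Position of the second gene gave a related order. The second nearest gene end lay inside the peak at 1318 shared-end control peaks, and 97.7% of these were overlapped by a Znhit1-CKO peak. Where it lay outside the peak at under 500 bp the share was 82.4% of 461 peaks, and from 500 to 1000 bp it was 80.5% of 401 peaks (interval 76.3 to 84.3%). Shared-end peaks that did not cover a second gene end were thus near the 80.5% of all 1-gene peaks. Just outside the limit, peaks with a second gene end beyond 1000 and up to 1500 bp away were overlapped in 75.9% of 386 cases (interval 71.3 to 80.1%). Peaks that cover a second gene end are also wide ones, their median being 1583.5 bp and that of peaks with it at 500 to 1000 bp being 1154 bp. Among head-to-head peaks, those whose starts lay under 200 bp apart without overlap of the genes were overlapped in 97.8% of 401 cases, and those whose starts lay 500 bp or more apart in 92.4% of 79 cases (interval 84.2 to 97.2%). A long non-coding RNA gene within 1000 bp of a 1-gene start peak went with a share of 88.5% (interval 86.7 to 90.1%), against 85.1% without one (interval 84.3 to 85.9%). The peaks with one were also wider, with a median of 1457 bp against 1354 bp, and the part of width was not tested.

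The deposited differential regions did not single out the shared-end peaks. A differential region overlapped 1310 shared-end control peaks (60.1%, interval 58.0 to 62.2%) and 7725 1-gene control peaks (59.6%, interval 58.7 to 60.4%), a difference of 0.517 percentage points (interval -1.71 to 2.74). The sign of this difference turned with peaks of at least 500 bp (-1.41 points) and with non-overlapping genes (-1.02 points). Over all control peaks the share was 48.9%. It was 66.4% at head-to-head peaks (interval 63.3 to 69.4%) and 54.2% at peaks of 1 start and 1 end (interval 49.7 to 58.7%). At matched width, 1-gene starts had shares of 65.4% and 59.2% beside these. The regions carry no sign and no threshold, so neither a gain nor a loss can be read from them. They overlapped 1221 of the 1991 shared-end control peaks that had a Znhit1-CKO peak (61.3%) and 89 of the 189 that had none (47.1%).

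Where a shared-end peak was listed in both genotypes, it was usually narrower in the Znhit1-CKO list. In 1736 cases a single Znhit1-CKO peak and a single control peak overlapped each other and no other peak. The median width of these was 1258 bp in Znhit1-CKO and 1433.5 bp in control testes, and the Znhit1-CKO peak was the narrower one in 1397 pairs (80.5%). Over all such pairs of the lists this share was 79.0%. The median log2 ratio of Znhit1-CKO over control width was -0.18 at shared-end peaks and -0.25 at the 9323 pairs of 1-gene peaks. By arrangement it was -0.14 at 787 head-to-head pairs, -0.21 at 395 pairs at 1 start and 1 end, and -0.61 at 22 pairs at 2 ends. The median ratio was -0.19 at shared-end pairs with a differential region and -0.16 at those without.

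**Figure D3:**
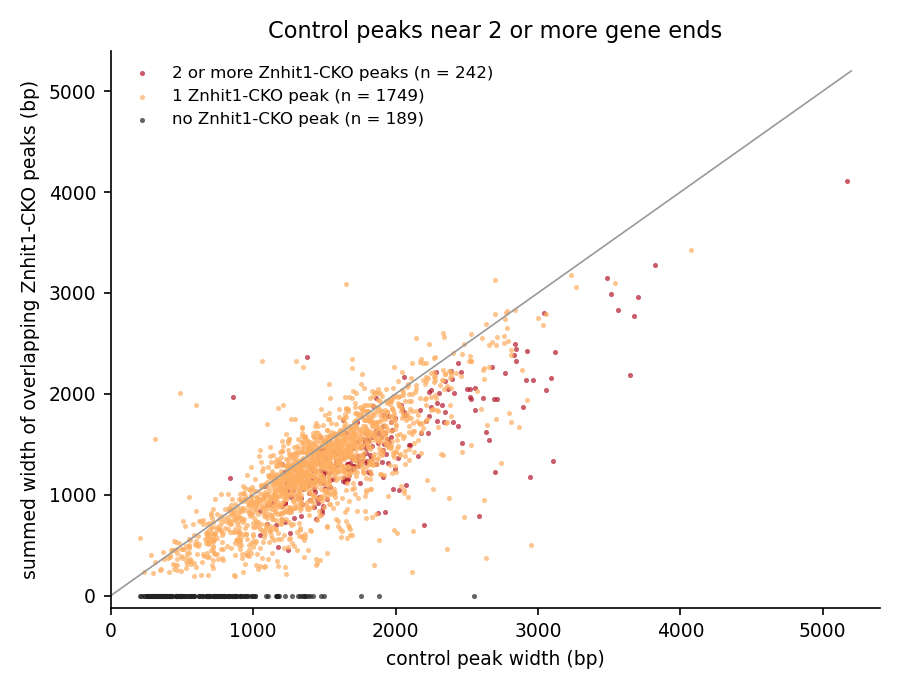
Summed width of the Znhit1-CKO peaks on each of the 2180 shared-end control peaks (vertical axis, bp) against the width of the control peak (horizontal axis, bp), coloured by the number of Znhit1-CKO peaks (242 with 2 or more, 1749 with 1 and 189 with none, drawn at 0). Points are single peaks and the line marks equal widths. Most points lie below the line, and points at 0 are mostly narrow control peaks.

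The narrowing was seen at both edges. Among 629 head-to-head pairs with 1 peak in each list across both starts, the Znhit1-CKO peak reached a median of 697 bp from the middle between the starts on the side of the minus-strand gene, against 745 bp for the control peak. On the side of the plus-strand gene it reached 689 bp, against 780 bp for the control peak. The Znhit1-CKO peak fell short of the control peak on both sides in 332 cases (52.8%), on 1 side only in 235 (37.4%) and on neither in 62 (9.86%).

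Shared-end peaks were also split more often. Of the shared-end control peaks, 242 (11.1%, interval 9.81 to 12.5%) were overlapped by 2 or more Znhit1-CKO peaks, against 1000 of the 1-gene peaks (7.71%) and 3.42% of all control peaks. At head-to-head peaks the count was 139 of 970 (14.3%, interval 12.2 to 16.7%), against 744 of 9007 at 1-gene starts (8.26%, interval 7.70 to 8.85%). Wide peaks were split most often, and 1-gene starts at the width mix of the head-to-head peaks had a share of 10.7%. In the group of 904 to 1331 bp the shares were 8.16% at head-to-head peaks (interval 4.74 to 12.9%) and 4.20% at 1-gene starts (interval 3.41 to 5.11%). In the group of 1676 bp and more they were 22.9% (interval 18.7 to 27.6%) at head-to-head peaks and 452 of 2364 (interval 17.6 to 20.8%) at 1-gene starts. The intervals of the 2 classes overlapped in each of the 4 width groups. Starts 500 bp or more apart had a split peak in 26.6% of 79 cases (interval 17.3 to 37.7%). Starts under 200 bp apart, without overlap of the genes, had one in 11.2% of 401 (interval 8.3 to 14.7%). The median control widths of these groups were 1671 bp and 1531 bp, and the part of width was not tested.

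The position of the gaps was set beside the starts. The split peaks had been chosen for lying within 1000 bp of gene ends. A gap inside them is thus near a start partly by that choice, and no expected share was computed. In 136 of the 139 split head-to-head peaks there were exactly 2 Znhit1-CKO peaks. The gap between them reached the stretch between the starts in 102 cases (73.4%) and covered its middle in 64 (46.0%). The centre of the gap was within 200 bp of that middle in 77 cases (55.4%), and the median gap was 215 bp wide (quartiles 180 and 275.5 bp). At 46 of the 139 peaks the genes overlapped at their starts, so the stretch between the starts lay inside both genes. At 21 the starts were 500 bp or more apart. At the 744 split peaks at the start of 1 gene, the gap nearest to the start had its centre at a median of -40.5 bp from it (negative values lie upstream), with the quartiles at -129.2 and 437.8 bp.

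A profile over 723 head-to-head pairs with a control peak, fewer than the 921 such pairs in the control list, also dipped in the middle. The dip was smaller in control. The profile is drawn from the same peak lists, split peaks among them, and is not a separate observation. The pairs, like the 1-gene starts below, were chosen for a control peak and not for a Znhit1-CKO peak. Higher cover in control thus follows partly from that choice. The middle between the starts was covered by a Znhit1-CKO peak in 85.3% of pairs and by a control peak in 96.5%. At 200 bp towards the minus-strand gene the shares were 92.3% in Znhit1-CKO and 97.6% in control, and at 200 bp towards the plus-strand gene 92.0% in Znhit1-CKO and 98.2% in control. At 1000 bp they had dropped to 15.2% and 16.0% on the 2 sides in Znhit1-CKO and to 19.2% and 22.5% in control. Differential regions covered the middle in 40.4% of pairs. At 1-gene starts they covered the start in 29.8% of cases and the position 150 bp downstream in 39.4%. Of the 24367 regions, 24362 were 400 bp wide. At 8007 starts of 1-gene peaks, the start itself was covered in 69.6% of cases in Znhit1-CKO and 86.9% in control. The cover there was lopsided, with 40.4% in Znhit1-CKO and 54.6% in control at 500 bp upstream, against 68.6% in Znhit1-CKO and 84.6% in control at 500 bp downstream. Head-to-head pairs had 82.0% and 81.9% in Znhit1-CKO and 91.1% and 93.1% in control at that distance on the minus-strand and plus-strand sides.

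**Figure D4:**
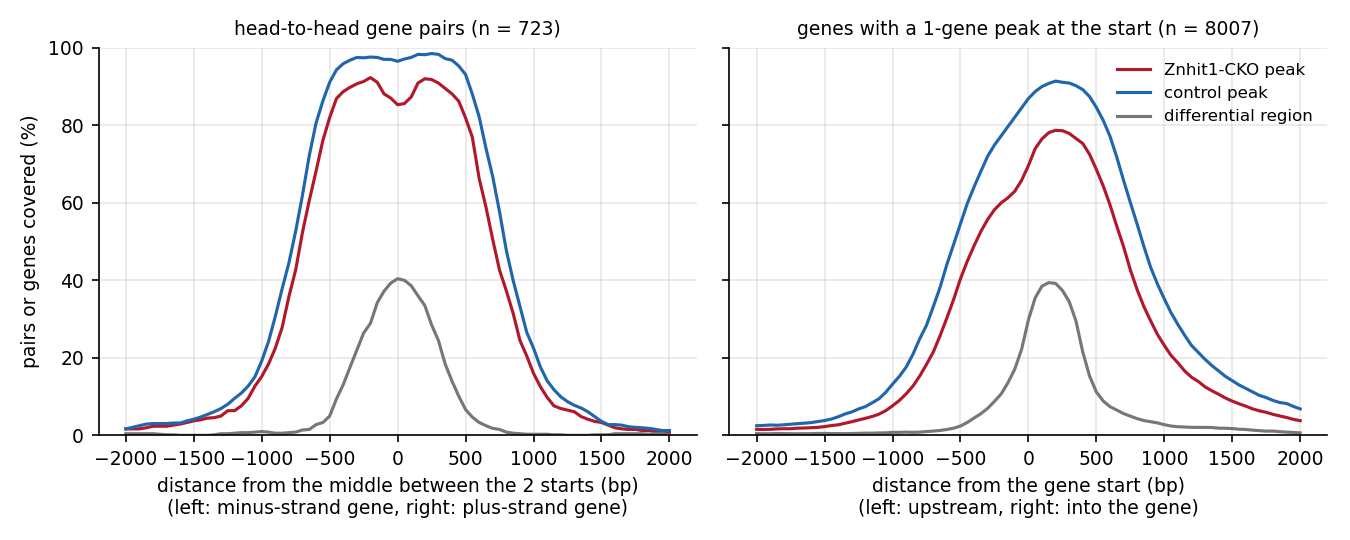
Share of positions covered by a Znhit1-CKO peak, a control peak or a differential region (in percent) by distance in bp, around the middle between the starts of 723 head-to-head pairs and around 8007 starts of 1-gene peaks. The head-to-head profile is nearly even on its 2 sides and dips in the middle in Znhit1-CKO (85.3%), while the profile at 1-gene starts leans downstream.

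Few shared-end Znhit1-CKO peaks lacked any overlap with a control peak, a count that depends on the overlap and window used. Of 2118 shared-end Znhit1-CKO peaks, 16 had no control peak (0.755%, interval 0.432 to 1.22%), against 294 of 11470 1-gene Znhit1-CKO peaks (2.56%) and 17.9% of all Znhit1-CKO peaks. The share was 21.2% where an overlap of 50% of both peaks was asked for, 2.13% with a window of 2000 bp and 0.119% with a window of 500 bp. The median width of the 16 was 389.5 bp, and 1 of them had a differential region. The widest lay at Nxnl1 and Slc27a1 (762 bp), Pcolce and Fbxo24 (754 bp), Creld1 and Prrt3 (613 bp) and Il25 and Cmtm5 (583 bp). Over all gene pairs with a peak near exactly 2 genes, 1794 pairs were in both lists, which is 97.8% of the 1835 pairs in the Znhit1-CKO list and 89.5% of the 2005 pairs in the control list.

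The ends of a pair mostly kept or lost their peaks together. At 1954 of the 2180 shared-end control peaks (89.6%) every gene end there had a Znhit1-CKO peak within 1000 bp, at 149 (6.83%) none had one, and at 77 (3.53%) some had. Of the peaks at 1 start and 1 end, 37 kept a Znhit1-CKO peak near 1 of the genes only, and in all 37 it was near the start. Because the ends of a pair are close to each other, 1 Znhit1-CKO peak can serve both.

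The widest shared-end control peaks that had a Znhit1-CKO peak were often broken up. At Anp32a, the gene of an acidic nuclear protein, and Gm20346, 2 Znhit1-CKO peaks, the wider of 3273 bp, lay on a control peak of 5168 bp. At Gm38469 and Arid2, a subunit of the PBAF remodelling complex, a Znhit1-CKO peak of 3422 bp faced a control peak of 4076 bp. At the ribonuclease genes Ang and Rnase4 there were 2 Znhit1-CKO peaks, the wider of 1971 bp, on a control peak of 3821 bp. Tgfb1, the growth factor, and B9d2, a protein of the ciliary transition zone, had 2 Znhit1-CKO peaks on a control peak of 3705 bp. Trp53i13 and Abhd15 also had 2, on 3677 bp, and Tshz1 and Zadh2 had 3, on 3645 bp. Of these 6 peaks, those at Anp32a and Arid2 had a differential region.

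The widest shared-end control peaks with no Znhit1-CKO peak lay at genes of several tissues, and each of the 9 described here had 1 differential region. The widest was the cholinergic locus (2553 bp, chr14:32463002-32465554), where Slc18a3, the vesicular acetylcholine transporter, lies within Chat, which makes acetylcholine. Syt5 and Ptprh had a control peak of 1883 bp. Lypd1 and Nckap5 (1475 bp), Cuedc1 and Mrps23 (1421 bp), Maneal and Epha10 (1398 bp) and Cmtm2a and Cmtm1 (1388 bp) had narrower ones. Duox1, an oxidase that makes hydrogen peroxide, and its maturation factor Duoxa1 had a head-to-head control peak of 1366 bp, as wide as the one at Ldb3 and Opn4, the gene of melanopsin. Rcn3 and Fcgrt, the neonatal Fc receptor, closed the group at 1357 bp. The first 3 of these peaks were wider than the median of all shared-end control peaks, 1424.5 bp.

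Pairs well known for a shared promoter or close neighbourhood were near the average of the shared-end peaks. Of 24 such pairs, 22 shared a control peak and 20 of these had a Znhit1-CKO peak, beside 91.3% of all shared-end control peaks, while Brip1 with Ints2 and Mlh3 with Acyp1 shared no peak in either list. Surf1 and Surf2, housekeeping genes of the surfeit locus, had a peak of 1163 bp in Znhit1-CKO and 1319 bp in control testes. Ppat and Paics, enzymes of purine synthesis, had 1524 bp in Znhit1-CKO and 1720 bp in control testes. Atm, the kinase of the DNA damage response, and Npat, which drives histone gene transcription, had 2378 bp in Znhit1-CKO and 2521 bp in control testes. Col4a1 and Col4a2, collagen genes of basement membranes, had 2161 bp in Znhit1-CKO and 2386 bp in control testes. Mcm4, of the replicative helicase, and Prkdc, the DNA-dependent protein kinase, had 2008 bp in Znhit1-CKO and 1892 bp in control testes. In this pair the Znhit1-CKO peak was thus the wider one.

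Several of the pairs had a split peak. Hspd1 and Hspe1, whose promoter is printed above, had 2 Znhit1-CKO peaks, the wider of 749 bp, on a control peak of 1606 bp. Trp53, which encodes p53, and Wrap53 had 3, the widest of 882 bp, on a control peak of 3091 bp. Brca1, the recombination factor, and Nbr1 had 2, the wider of 1638 bp, on 2062 bp. Gart, of purine synthesis, and Son, a splicing factor, had 2, the wider of 622 bp, on 1880 bp. The pairs without a Znhit1-CKO peak were Chat with Slc18a3 and Msh4, which stabilises meiotic crossover intermediates, with Rabggtb, a subunit of the enzyme that prenylates RAB proteins (827 bp in control testes).

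Gene lists of common cell functions differed in how many members lay at shared-end peaks, 14.7% of zinc finger genes and 52.6% of mitochondrial ribosomal protein genes among them. Nearly all of those members had a Znhit1-CKO peak there, as did most genes at shared-end peaks. Of all 21900 protein-coding genes, 3968 (18.1%) were at a shared-end control peak, and 3730 of these (94.0%) had a Znhit1-CKO peak on it. A further 10847 genes were at 1-gene control peaks only, 9392 of them (86.6%) with a Znhit1-CKO peak. Counting all shared-end and 1-gene peaks of a gene together, 11.0% of the genes with such a control peak had no Znhit1-CKO peak on any of them. Of 123 genes of DNA repair and replication, 53 (43.1%) were at a shared-end control peak and all 53 had a Znhit1-CKO peak, and 65 of the 66 at 1-gene peaks did. Of 78 mitochondrial ribosomal protein genes, 41 (52.6%) were at a shared-end peak and 40 had a Znhit1-CKO peak, with Mrps23 the exception, and all 35 at 1-gene peaks did. Of 85 cytoplasmic ribosomal protein genes, 26 (30.6%) were at a shared-end peak, all with a Znhit1-CKO peak, and so were 52 of the 57 at 1-gene peaks. Of 394 zinc finger genes, 58 (14.7%) were at a shared-end peak, and 56 of the 58 had a Znhit1-CKO peak, as did 269 of 281 at 1-gene peaks. Of 24 genes of H2A.Z exchange, 6 were at a shared-end peak and 17 at 1-gene peaks, all with a Znhit1-CKO peak.

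Replication-dependent histone genes, which lie in tight clusters, lay at shared-end control peaks in 39 of 67 cases (58.2%). Of these, 36 had a Znhit1-CKO peak, as did 15 of 19 at 1-gene peaks. At H2ac15 and H2bc15 the peak was 1198 bp wide in Znhit1-CKO and 1425 bp in control testes. The pairs H2ac22 with H2bc22 (918 bp) and H2bc7 with H2ac7 (854 bp) had a head-to-head control peak and no Znhit1-CKO peak on it. At the testis variants H2bc1 and H2ac1, a Znhit1-CKO peak of 206 bp lay on a control peak of 867 bp, and none lay on their other control peak of 490 bp. These histone pairs were chosen after their values were seen.

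Genes of meiosis lay at shared-end peaks in 18 cases, and in 5 of these the Znhit1-CKO list had no peak there. Of 54 such genes, 18 (33.3%) were at a shared-end control peak, 13 with and 5 without a Znhit1-CKO peak (72.2% with one, interval 46.5 to 90.3%). A further 34 were at 1-gene peaks only, 22 with and 12 without (64.7% with one, interval 46.5 to 80.3%). The intervals of both overlap, and each is below the 94.0% and 86.6% of all genes.

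The 13 genes with a Znhit1-CKO peak include several at head-to-head peaks. Trip13 with Brd9 had a peak of 1535 bp in Znhit1-CKO and 1618 bp in control testes. Smc1b with Ribc2 had 718 bp in Znhit1-CKO and 1018 bp in control testes. 4930432K21Rik with Cc2d1a had 1433 bp in Znhit1-CKO and 1343 bp in control testes. Only the last of these was wider in Znhit1-CKO. Bhmg1, which encodes the partner of STRA8 at meiotic entry, and Fbxo46 had Znhit1-CKO peaks no wider than 813 bp on a control peak of 1082 bp and no wider than 464 bp on a control peak of 1200 bp. Rec114, needed for meiotic double-strand breaks, and Hcn4 had 2 Znhit1-CKO peaks, the wider of 992 bp, on a control peak of 1770 bp. Terb1, which ties telomeres to the nuclear envelope, lies with its start at the end of Nae1, and the peak there was 937 bp in Znhit1-CKO and 1484 bp in control testes.

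At Mei1, Hormad1 and Gm960, the gene of the TOPOVIBL protein, the shared-end peak with a Znhit1-CKO peak lay at the end of the meiotic gene and not at its start. Mei1, needed for meiotic breaks, had its own 1-gene control peak as well, and that one had no Znhit1-CKO peak. Gm960 also had a 1-gene control peak of its own, and that one had a Znhit1-CKO peak. The shared peak of Mei1 and Ccdc134 was 1291 bp wide in Znhit1-CKO and 1395 bp in control testes. Hormad1, a protein of the chromosome axis, shared its peak with Golph3l.

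The 5 meiosis genes without a Znhit1-CKO peak had narrow control peaks. Aspa with Spata22, a factor of recombination, had 469 bp, Patl2 with Terb2, a partner of TERB1, 828 bp, and Msh4 with Rabggtb 827 bp. Stag3, the meiotic cohesin subunit, lay with Gal3st4 and Gpc2 at 361 bp. Kash5, which links telomeres to dynein, lay with its end at a peak of 497 bp shared with Pth2, and it had a 1-gene control peak of its own with a Znhit1-CKO peak. In the peaks at Spata22, Msh4 and Stag3 the end concerned was the start of the meiotic gene. The strand of Terb2 was not given. All 5 were in the width groups below 904 bp, where 56.8% of 352 shared-end control peaks had a Znhit1-CKO peak. Differential regions lay on the peaks of Terb2 and Msh4 and not on the other 3.

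Genes of pachytene, piRNA production and spermiogenesis were rarer at shared-end peaks, 8 of 61 (13.1%), and 4 of these had a Znhit1-CKO peak on every such peak or on 1 of several. A further 35 were at 1-gene peaks only, 21 with and 14 without a Znhit1-CKO peak. The shares were 50% (interval 15.7 to 84.3%) and 60% (interval 42.1 to 76.1%), beside 94.0% and 86.6% of all genes. Control peaks without a Znhit1-CKO peak lay at the starts of Mov10l1, the helicase of piRNA biogenesis, with Mlc1 (340 bp), of Btbd18 with Ctnnd1 (878 bp) and of Acrbp, an acrosomal protein, with Ing4 (752 bp). Adam3, a sperm surface protein, with Adam5 (905 bp) had none either, and the strand of Adam3 was not given. Apart from that at Adam3, these peaks were in the width group of 205 to 903 bp. In that group 56.8% of 352 shared-end control peaks had a Znhit1-CKO peak. Izumo1, the sperm protein of gamete fusion, had 2 shared-end control peaks. The one at its start, with Fut1 (575 bp), had no Znhit1-CKO peak. The one at its end, with Rasip1, was 1048 bp wide in Znhit1-CKO and 1175 bp in control testes. Tekt2 and Gapdhs, genes of the sperm tail, likewise had a Znhit1-CKO peak at their ends, beside Adprhl2 and Tmem147. Among the shared-end peaks, Catsper2, a subunit of the sperm calcium channel, was the member whose start had one, beside Pdia3. That peak was 1018 bp wide in Znhit1-CKO and 1391 bp in control testes. Of the members that also had a 1-gene control peak of their own, Tekt2 had a Znhit1-CKO peak on it and Acrbp did not. Markers of other testis cell types were at shared-end peaks in 4 of 36 cases, all with a Znhit1-CKO peak, and at 1-gene peaks in 18, of which 11 had one. Over all genes the shares were again 94.0% and 86.6%. The part of these cell types in the result was not tested.

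Peaks near 3 or more genes numbered 68 in the control list, 62 of them with a Znhit1-CKO peak (91.2%, interval 81.8 to 96.7%). The largest counts came from the clustered protocadherin genes of the gamma group, cell adhesion genes that share their last exons, at which 2 narrow control peaks were near 25 and 24 gene ends. A Znhit1-CKO peak of 747 bp lay on the control peak of 646 bp, and none lay on that of 390 bp. A peak near Gm20517, Usp49, Tomm6, Frs3 and Prickle4 was 1707 bp wide in Znhit1-CKO and 1873 bp in control testes. On the X chromosome, 36 of 46 shared-end control peaks had a Znhit1-CKO peak (78.3%, interval 63.6 to 89.1%), against 67.7% of 440 1-gene peaks there and 91.6% of the shared-end peaks on autosomes. Shared-end control peaks on X were also narrower, with a median of 1043.5 bp against 1432.5 bp on autosomes, and 30.4% of them had a differential region, against 60.7% on autosomes.

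Promoters at head-to-head starts had a higher median CpG ratio and more often an ETS match than those at 1-gene starts. A promoter was used where the listed start lay within 1000 bp of the gene end at the peak. Off chromosome 18, 83.9% of 3883 genes at shared-end peaks and 80.8% of 10531 genes at 1-gene peaks only had any listed promoter. The start was within the limit, and the promoter thus usable, for 2962 of these 3883 genes and 7865 of these 10531. The median ratio of observed to expected CpG was 0.837 at 1684 head-to-head starts, 0.729 at 450 starts beside the end of another gene, 0.738 at 7994 starts of 1-gene peaks and 0.586 over all 15752 promoters used. An ETS match was found in 27.0% of head-to-head starts (interval 24.9 to 29.2%) and in 25.8% of starts beside another gene's end, against 14.3% of 1-gene starts (interval 13.5 to 15%) and 12.0% of all promoters. A TATA box match was found in 5.05% of head-to-head starts, 7.63% of 1-gene starts and 13.7% of all promoters. SP1 matches were as common at head-to-head starts (66.3%) as at 1-gene starts (65.5%), and both were above the 46.7% of all promoters. CCAAT box matches were near 40% in each set. NRF1, CREB and YY1 matches were found in under 4% of each of these sets, and YY1 matches in 2.79% of head-to-head starts and 1.33% of 1-gene starts. The 2 promoters of a head-to-head pair can overlap and share a match, so their intervals are too narrow. A match is a description of letters and not a bound site.

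**Figure D5:**
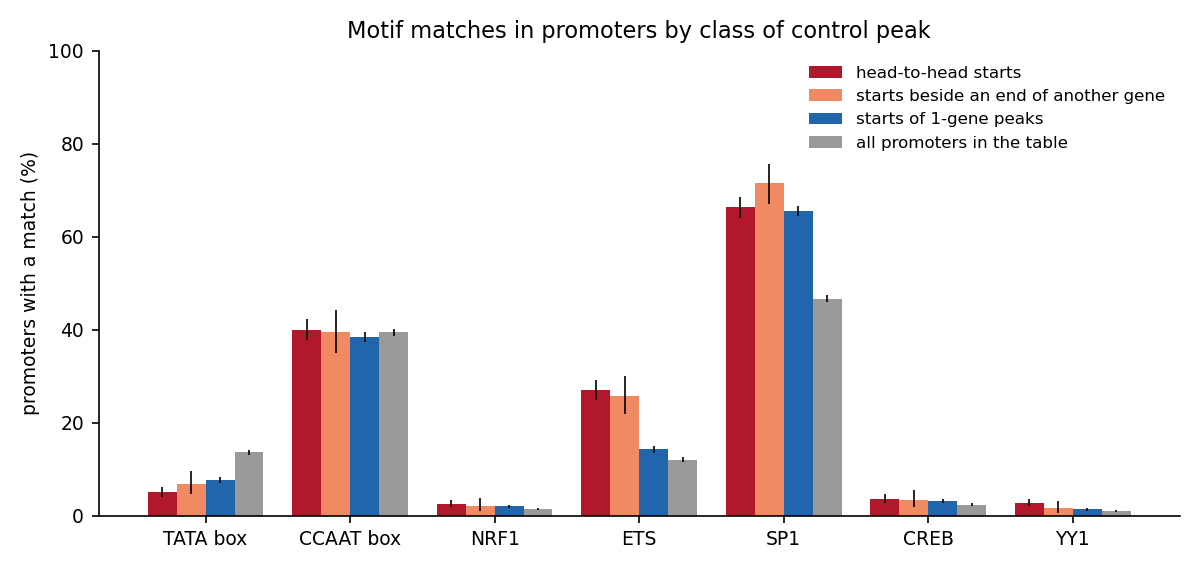
Share of promoters of 300 bases with a match of each motif (in percent), at head-to-head starts, starts beside the end of another gene, starts of 1-gene peaks and all promoters in the table. Bars start at 0 and lines are exact 95% intervals. The ETS motif is at 27.0% in head-to-head starts and 14.3% in 1-gene starts, while the CCAAT box is near 40% in all sets.

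The CpG ratio and the ETS share also differed between shared-end starts with and without a Znhit1-CKO peak. The median CpG ratio was 0.817 at 2436 starts with one and 0.542 at 90 starts without, and at 1-gene starts 0.763 with one and 0.438 without. An ETS match was found in 26.9% of shared-end starts with a Znhit1-CKO peak (interval 25.1 to 28.7%) and in 7.78% of those without (interval 3.18 to 15.4%). At 1-gene starts it was found in 15.3% with a Znhit1-CKO peak and 6.40% without. A TATA box match was found in 5.25% of shared-end starts with a Znhit1-CKO peak (interval 4.4 to 6.22%). Without one the share was 10% (interval 4.68 to 18.1%), so the intervals overlapped. At the head-to-head starts alone it was 4.72% with a Znhit1-CKO peak (interval 3.75 to 5.85%) and 7 of 31 without (22.6%, interval 9.59 to 41.1%). Single promoters did not all follow the shares. Of those printed above, Brd9 and Hspe1, which had Znhit1-CKO peaks, hold ETS matches, whereas Smc1b and 4930432K21Rik had Znhit1-CKO peaks and hold none. Btbd18, which had no Znhit1-CKO peak, holds CCAAT boxes and no ETS match, and Smc1b likewise holds a CCAAT box only. The promoters of the histone pairs H2ac15 and H2bc22 both hold a TATA box match and CCAAT boxes, and only the first had a Znhit1-CKO peak. Peak width differed between these sets too, and its part in the sequence differences was not tested.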

How the data were processed

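H2A.Z was immunoprecipitated from testis cells of Znhit1-CKO and control mice at postnatal day 14, in 2 biological replicates with inputs per genotype, with over 30000000 reads per sample per the labels' protocols. The submitters' processing notes name cutadapt 2.5, BWA 0.7.17, SAMtools 1.9, Picard 2.20.7, MACS2 2.2.4 and the mm10 build, with no role or order. The authors deposited 3 lists of intervals (chromosome, start and end), namely peaks of each genotype and differential regions. No source used here gives the peak threshold, the pooling of replicates, or the threshold and sign of differential regions. Depth per sample is unknown from the files.

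Gene ends were those of 21900 protein-coding genes in RefSeq's GRCm38.p6 table. Strand was taken from the RefSeq promoter table, which gave it for 17492 of them. Peaks overlapping by at least 1 bp were taken as shared. Shares carry exact 95% intervals, the difference of shares a normal-approximation 95% interval, and no p-value was computed. Width groups are quartiles of all control peaks near a gene end. The members, the gene lists and the tests were chosen with earlier results of these data known. Genes were named by rule: the 6 widest shared-end control peaks with and the 10 widest without a Znhit1-CKO peak, the 4 widest Znhit1-CKO peaks without a control peak, the 6 peaks near the most genes, the textbook pairs, and the list members at shared-end peaks. Peaks with predicted genes only were left out of the first 4 parts, and 1 peak that the rule names is not reported here. The printed promoters were picked by hand. Meiosis genes Hop2, Spo16, Redic1 and Sws1 were not found by symbol. The scripts were tested on simulated intervals. Python 3.11.15, numpy 2.4.6, pandas 2.3.3 and scipy 1.17.1 were used.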

Additional observations from a re-analysis of the deposited data

How the results depend on the processing

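No paired analysis was possible because each genotype has 1 deposited peak list, and for the same reason no replicate could be left out. Of 102 alternative values, 75 stayed within their counting interval (counts within 1.5 times) and 27 did not. The small excess of shared-end over 1-gene peaks in differential regions (0.517 points) was -1.02 points with non-overlapping genes and -1.41 points with peaks of at least 500 bp, all with intervals that include 0. Overlap of shared-end control peaks by Znhit1-CKO peaks (91.3%) came to 93.8% with a window of 500 bp, 87.3% with 2000 bp, 89.5% with peaks of at least 500 bp, 78.6% with an overlap of 50% of both peaks and 92.8% with a gap of 500 bp allowed. The share with a differential region (60.1%) was 57.8% with 2000 bp and 62.4% with peaks of at least 500 bp. Shared-end peaks found in Znhit1-CKO alone (0.755%) came to 0.119% with 500 bp, 2.13% with 2000 bp and 21.2% with an overlap of 50%. The head-to-head share (96.4%) was 94.6% with 2000 bp, 93.8% with peaks of at least 500 bp and 83.5% with an overlap of 50%, and its excess over 1-gene starts (10.8 points) was 9.28 points with 500 bp. Median widths with 500 bp, 2000 bp, non-overlapping genes and peaks of at least 500 bp were 1245, 1080, 1131 and 1231.5 bp in Znhit1-CKO (1170 bp as reported) and 1482, 1349.5, 1397 and 1450 bp in control testes (1424.5 bp). The causes of these moves were not tested. The excess of shared-end over 1-gene peaks with a Znhit1-CKO peak, the width ratio and the counts of list members stayed within their intervals or within 1.5 times. Alternatives on arrangement, on the excesses, on lists, without X and Y and by width group were added after seeing the data. Peak lists without counts leave unknown what depth limits.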

Other observations

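By chromosome, shared-end peaks made up 20.8% of the control peaks near a gene end on chromosome 7, 19.9% on chromosome 17 and 19.3% on chromosome 19, against 8.59% on chromosome 18, 9.47% on X and 9.99% on chromosome 6. Of them, 98.4% of 62 on chromosome 16 had a Znhit1-CKO peak, and 77.8% of 36 on chromosome 18. More than 1 shared-end peak lay at 221 of 1835 gene pairs in the Znhit1-CKO list and at 105 of 2005 in the control list. Genes overlapped at their starts at 370 of the 970 head-to-head control peaks (38.1%), and 796 (82.1%) of the 970 covered both starts.

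Among the 20 control peaks at 2 facing gene ends with no Znhit1-CKO peak, chosen after their values were seen, the widest lay at C1qtnf5 and Mfrp (917 bp), a pair expressed in the retinal pigment epithelium, and at Slc17a7, the vesicular glutamate transporter, and Gfy (828 bp).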
